A study of Mus musculus with 12 samples.

Results

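The comparison set input RNA of mouse brain 90 min after maximal electroconvulsive stimulation (MECS) against input RNA of naive mice, with 3 libraries in each group, chosen by their labels from the 12 libraries of the series. The mice were C57BL6JL males aged 3 to 5 months, and mixed cortex and hippocampus was taken. MECS was a current of 85 mA for 1 s, given at 100 Hz in pulses of 0.5 ms through ear clips, and naive mice were handled in parallel. The homogenate of both groups was irradiated with ultraviolet light at 400 mJ/cm2 before the input was removed, so input is total RNA of the lysate without any antibody. Libraries were made with a strand-specific total RNA kit after depletion of ribosomal RNA, and reads were single-end of 100 bp. All shocked animals convulsed. The labels do not say whether a library came from 1 animal or a pool, so p-values measure only the spread between these libraries, which may in part be technical.

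The libraries held 704432 to 1428407 counts in genes, which was 1.42 to 1.75% of their listed reads. Naive libraries had 1.68 ± 0.07% and MECS libraries 1.48 ± 0.10% of reads in genes (SD, n = 3 each; 2-sided exact permutation p = 0.1, the smallest that 3 against 3 allows). The excitatory neuron markers gave 345 to 464 CPM in sum (CPM are counts scaled to a common library total), with no marker at 0. Inhibitory neuron markers gave 175 to 270 CPM, with 1 marker at 0. The 8 blood markers gave 307 to 400 CPM in sum, although 6 of them had no count in any input library. Alas2, another of the 8, lies in introns of the opposite-strand gene Apex2.

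The counts lie mainly opposite annotated genes, and no source used here says which strand was counted. What stands under a symbol is therefore the count of the feature so annotated, which need not be RNA of that gene. Each feature was also read by its host, the opposite-strand gene in GENCODE M21 that holds at least 50% of its exon bases, and counts were summed per host. This gave 8067 of 55471 features a host, and 5709 hosts in all. CPM of features and hosts are on 1 scale, relative to TMM-scaled gene counts. All fold changes are log2 differences of MECS over naive with standard errors (SE), tested with edgeR's quasi-likelihood test and Benjamini-Hochberg adjustment at 0.05.

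Seizures and strong neuronal firing are known to switch on transcription within minutes through calcium signalling and factors such as CREB and SRF. Early transcription factor genes such as Fos are followed by effector genes whose products act at synapses or are secreted. A newly made transcript of a long gene is mostly intron, so total RNA holds intronic RNA of genes under transcription. In bulk tissue, a change in the number of cells of a type and a change of RNA per cell cannot be told apart.

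After MECS, most features whose counts rose lay inside introns of a host, and most of these hosts were long genes. The hosts that rose included genes for secreted proteins, protein kinases and phosphatases, and proteins of synaptic vesicle recycling. Others among them, such as the leukocyte integrin gene Itgad, belong to none of these groups. Whether the hosts are mainly neuronal genes was not tested. Of 10402 features tested, 53 rose (0.51%) and 10 fell (0.0961%), together 0.606%. Read by host, 24 of 3024 rose (0.794%) and 10 fell (0.331%), together 1.12%. At an unadjusted p under 0.05 were 1005 features and 365 hosts. The MECS libraries all lay above the naive libraries in 814 features (7.83%) and 338 hosts (11.2%) of those tested. They all lay below the naive libraries in 730 features and 181 hosts. Separate groups were a condition for naming most of the hosts and features below. The count of features was 63 in all, and 1 library could move it by more than 1.5 times: it was 19 without naive input 1, 21 without naive input 2, 31 without naive input 3, 114 without MECS input 1 and 24 without MECS input 3. The 34 hosts became 7 without naive input 1, 7 without naive input 2 and 6 without MECS input 3. Scaling by library size alone moved the median log2 change of hosts by 0.15, and then 121 hosts rose and 13 fell, 90.3% rising in place of 70.6%.

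**Figure D1:**
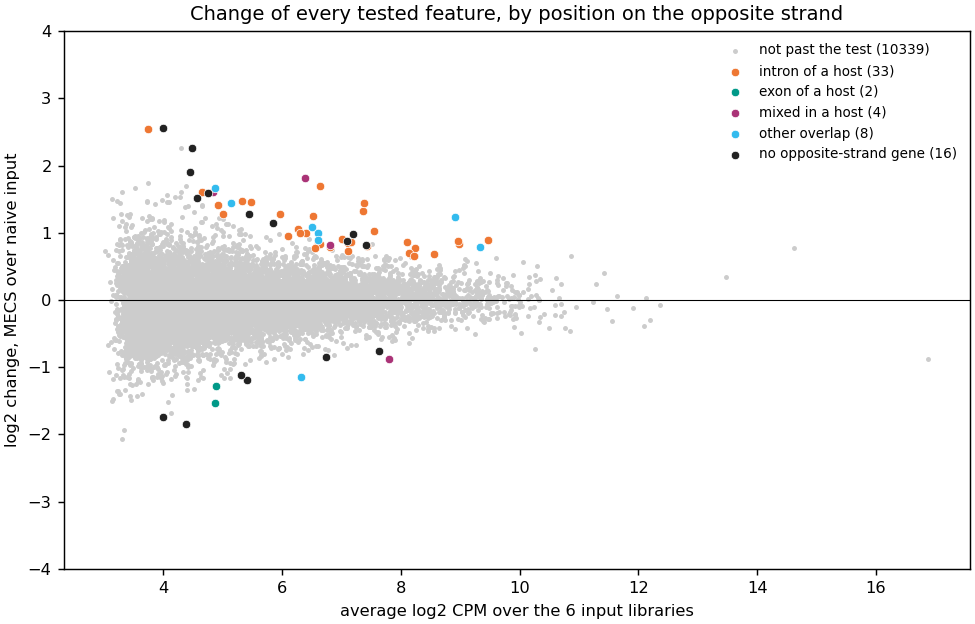
Each point is 1 of the 10402 tested features, with the average log2 CPM over the 6 input libraries on the x axis and the log2 change of MECS over naive on the y axis; coloured points passed the test and the colour gives the position on the opposite strand. The 33 coloured intron features all lie above 0, and the 10 features that fell are exon, mixed or hostless features.

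Of 34 effector genes of neuronal activity on the list, 10 were hosts and 8 of these were tested. Of these 8, 3 rose, where 0.794% of all hosts rose, and none fell. A positive log2 change was found for 7, with a median of 1.07 beside -0.01 for all hosts. The list was drawn up with results for Adamts9, Sorcs3 and Bmp6 known, so its count is a description. By the features' own symbols, 0 of 10 tested members passed, with a median of 0.02.

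Adamts9 encodes a secreted metalloproteinase that cleaves extracellular matrix proteoglycans (chromosome 6, 92772699 to 92943492, minus strand). Its features had 82.3, 87.7 and 99.8 CPM in the naive libraries and 272, 205 and 226 CPM in the MECS libraries. The groups did not overlap, and MECS input 1 was the highest. The log2 change was 1.34 (SE 0.17, adjusted p = 0.000112). Both of its tested features rose: A730049H05Rik, at 60.4% of the length of Adamts9 from its 5′ end, by 1.82 (SE 0.21), and Gm15737, at 36.2%, by 0.99 (SE 0.20). The counts under the symbol Adamts9 itself were 33 to 49 per library.

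The promoter of Adamts9 is shown because this host had the smallest p and because CREB binds the letters TGACGTCA or their core TGACG. These are the 250 bases before the RefSeq start of the gene (GRCm38.p6, minus strand, chr6:92943535-92943784), with the only TGACG, found on either strand 218 bases before the start, in capitals.
Adamts9: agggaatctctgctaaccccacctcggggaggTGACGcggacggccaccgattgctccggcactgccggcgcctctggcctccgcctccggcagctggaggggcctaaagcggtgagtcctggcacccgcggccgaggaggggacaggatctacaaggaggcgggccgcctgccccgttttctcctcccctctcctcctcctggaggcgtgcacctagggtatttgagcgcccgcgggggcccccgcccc
RefSeq promoters of 300 bases were matched for 16 of the 24 hosts that rose, 21 promoters in all. TGACG on either strand was found for 4 of the 16 hosts, Adamts9, Hdac4, Pitpnm2 and Synj1, and it is in 20.8% of 32851 such promoters. The shares of all count promoters and not hosts, and some hosts had more than 1 promoter. Pitpnm2 and Synj1 each had TGACG in 1 promoter and lacked it in another. TGACGTCA, which contains TGACG, was found for 0 of the 16 and is in 1.79% of all. The AP-1 letters TGANTCA were also found for 0 of the 16 and are in 7.81% of all. So were the glucocorticoid response letters TGTTCT, which are in 19.0% of all, and the CArG box of SRF, in 1.63%. The difference from these shares was not tested. A match to these letters is a description of the sequence and not a binding site.

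Sorcs3 encodes a neuronal sorting receptor of the VPS10 domain family (chromosome 19, 48206025 to 48805505, plus strand). The 1 feature inside it, Gm23857, had 18.2, 22.7 and 25.7 CPM in naive and 86.6, 40.2 and 55.8 CPM in MECS libraries. All MECS values were above all naive values, with MECS input 2 the lowest of them, and the log2 change was 1.43 (SE 0.29, adjusted p = 0.0158). Gm23857 lies 34565 bases from the start of Sorcs3 and is annotated as a ribosomal RNA copy, so reads of other copies could be counted there. The call was lost without naive input 1, naive input 2, MECS input 1 or MECS input 3 (adjusted p up to 0.179).

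Bmp6 encodes a secreted growth factor of the TGF-beta family (chromosome 13, 38345107 to 38500302, plus strand). Its feature 4930579J19Rik had 1.73, 1.51 and 5.46 CPM in naive and 26.6, 19.2 and 10.8 CPM in MECS libraries. The naive libraries were all low, and MECS input 3 was the lowest of its group. The log2 change was 2.52 (SE 0.53, adjusted p = 0.0200), the largest among hosts that rose. It was lost without naive input 1, naive input 2 or MECS input 1 (adjusted p up to 0.213). Inhba, which encodes an activin subunit, had 1.52 (SE 0.44, adjusted p = 0.0876) and did not pass.

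On the list of signalling kinases, phosphatases and phosphodiesterases, which also holds histone deacetylases and the lipid transfer protein gene Pitpnm2, 6 of 15 tested hosts rose and none fell, where 0.794% of all hosts rose. The 6 were Ppm1h, Mapk4, Prkca, Pde10a, Hdac4 and Pitpnm2. The list was drawn up with results of these data known, so its count is a description. A positive log2 change was found for 13, and the median was 0.17. By the features' own symbols, 0 of 14 passed and the median was -0.21.

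Ppm1h encodes a protein phosphatase of the metal-dependent family (chromosome 10, 122678762 to 122945795, plus strand). Its 3 features together had 114, 113 and 145 CPM in naive and 390, 214 and 407 CPM in MECS libraries, and the log2 change was 1.39 (SE 0.20, adjusted p = 0.000617). The groups were far apart, with MECS input 2 nearest to the naive libraries. The 3 features lay between 29.5 and 42.5% of the gene, and their changes were 1.45, 1.47 and 1.21.

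Pde10a encodes a phosphodiesterase that breaks down cyclic AMP and cyclic GMP and is most abundant in striatum. It had the highest level among the hosts that rose, with 741, 873 and 902 CPM in naive and 1357, 1525 and 1299 CPM in MECS libraries. The groups did not overlap, and the log2 change was 0.69 (SE 0.14, adjusted p = 0.0110). The call was lost without naive input 1, naive input 2 or MECS input 3 (adjusted p up to 0.147). Striatum markers read by feature summed to 64.7 to 68.1 CPM in naive and 64.0 to 77.4 CPM in MECS libraries, which overlap. Read by host, they summed to 1027 to 1165 CPM in naive and 1724 to 1775 CPM in MECS libraries, a sum that includes Pde10a itself. Ppp1r1b, the other striatum marker tested as a host, had 0.35 (SE 0.17, adjusted p = 0.413), and as a feature 0.93 (SE 0.43, adjusted p = 0.471) with MECS libraries all above naive. Thalamus and hypothalamus markers summed to 33.5 to 56.0 CPM in naive and 29.6 to 32.3 CPM in MECS libraries, which overlap with scaling by library size (31.8 to 52.5 and 28.0 to 32.7 CPM). The 2 excitatory neuron markers read by host summed to 123 to 130 CPM in naive and 108 to 119 CPM in MECS libraries. The part of dissection in the rise of Pde10a was not tested.

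Prkca encodes protein kinase C alpha. Its features had 128, 163 and 173 CPM in naive and 278, 252 and 306 CPM in MECS libraries, a log2 change of 0.81 (SE 0.16, adjusted p = 0.0109). Mapk4, an atypical MAP kinase gene, had 211, 260 and 261 CPM against 434, 396 and 499 CPM, a log2 change of 0.82 (SE 0.15, adjusted p = 0.00513). In both hosts the lowest MECS library was above the highest naive library. Both calls were lost without naive input 1 or MECS input 3, and that of Prkca also without naive input 2 (adjusted p up to 0.150 for Prkca and 0.0769 for Mapk4).

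Hdac4 encodes a class IIa histone deacetylase that moves between nucleus and cytoplasm with neuronal calcium. Its feature Gm37048 had 292, 284 and 285 CPM in naive and 470, 414 and 499 CPM in MECS libraries, a log2 change of 0.64 (SE 0.14, adjusted p = 0.0216). The naive libraries were nearly equal. Pitpnm2, a membrane-associated phosphatidylinositol transfer protein gene, had 470, 502 and 725 CPM against 1070, 837 and 1046 CPM, a log2 change of 0.76 (SE 0.16, adjusted p = 0.0196). Both calls were lost without naive input 1, naive input 2 or MECS input 3, and that of Hdac4 also without naive input 3 (adjusted p up to 0.20 for each).

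Synaptic vesicle and recycling genes were represented by 18 tested hosts, of which 3 rose, where 0.794% of all hosts rose, none fell and 15 had a positive log2 change, with a median of 0.27. This list too was drawn up with results known. With scaling by library size, 6 of the 18 rose and the median was 0.43. Amph encodes amphiphysin, which binds clathrin and dynamin at the presynaptic membrane. Its 3 features had 149, 147 and 149 CPM in naive and 361, 215 and 339 CPM in MECS libraries, a log2 change of 1.00 (SE 0.18, adjusted p = 0.00404). The naive libraries were nearly equal, while MECS input 2 was well below the other MECS libraries. All 3 features passed on their own, at 12.0% of the gene with 0.79, at 45.1% with 1.25 and at 60.8% with 1.41. Without MECS input 3, the adjusted p of Amph was 0.0731.

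Sv2c encodes a synaptic vesicle glycoprotein. Its feature Gm17190 had 12.1, 9.08 and 11.7 CPM in naive and 39.2, 23.8 and 40.2 CPM in MECS libraries, a log2 change of 1.58 (SE 0.34, adjusted p = 0.0234). Synj1 encodes synaptojanin, a lipid phosphatase of vesicle uncoating, and it rose from 185, 183 and 188 CPM to 304, 249 and 325 CPM, by 0.62 (SE 0.15, adjusted p = 0.0432). Both hosts had MECS values wholly above the naive ones, but both calls were lost when any library except MECS input 2 was left out (adjusted p up to 0.182 for Sv2c and 0.298 for Synj1). Sh3gl2, which encodes endophilin A1, had 0.80 (SE 0.20, adjusted p = 0.0501) as a host, and its feature Gm12413 rose by 0.84 (SE 0.20). The feature Gm24858 inside the vesicle protein gene Sv2b also rose, by 0.99 (SE 0.24).

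Postsynaptic receptor and scaffold genes gave no call by host or by feature: 0 of 14 hosts and 0 of 18 features passed, with 2 hosts and 1 feature at an unadjusted p under 0.05. Their medians were 0.05 and -0.06, and the latter became 0.01 with scaling by library size.

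**Figure D2:**
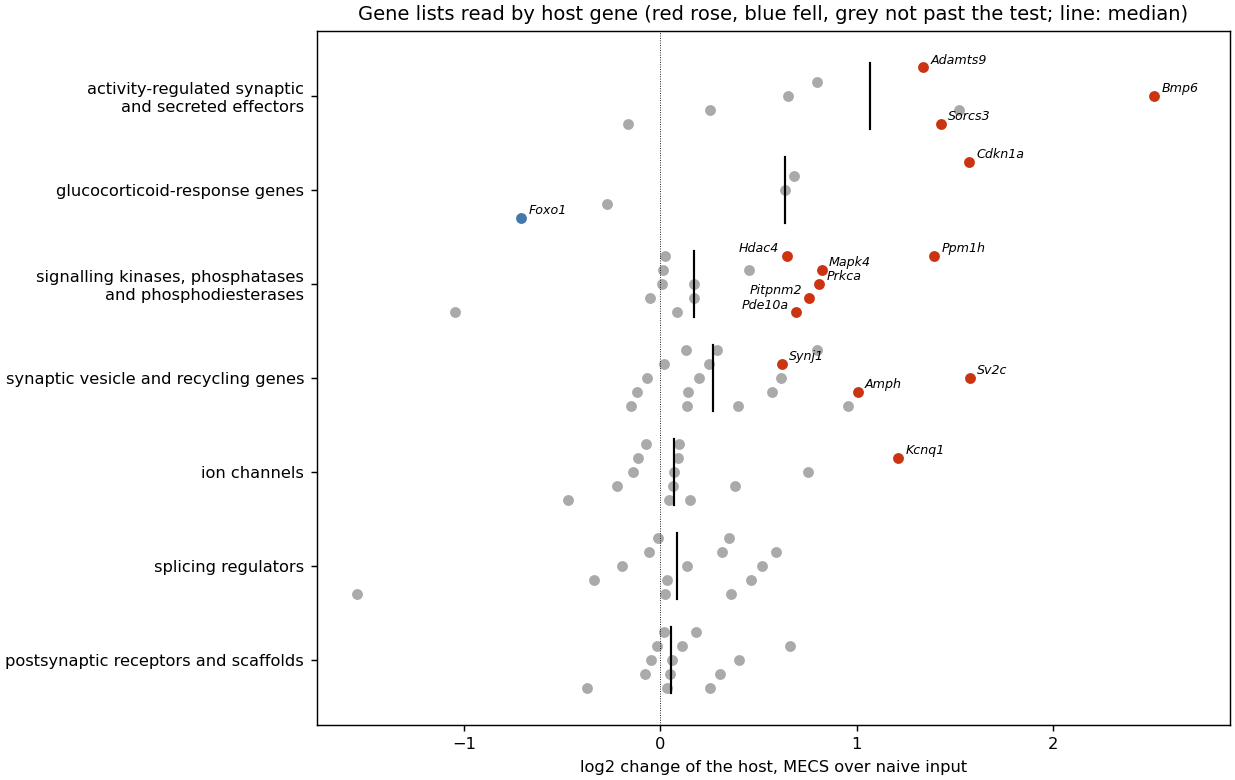
Each point is 1 tested host of 7 gene lists, placed by its log2 change of MECS over naive; the vertical line is the median of the list. Red points rose, the blue point fell and grey points did not pass the test; the red points sit in the effector, glucocorticoid, signalling, vesicle and channel lists.

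While 0.794% of all hosts rose, 1 of 14 tested ion channel hosts did. This was Kcnq1, a voltage-gated potassium channel gene inside an imprinted region (chromosome 7, 143106362 to 143427042, plus strand), with 70.2, 132 and 109 CPM in naive and 283, 227 and 217 CPM in MECS libraries. Its counts are nearly all those of the feature Kcnq1ot1, the paternally expressed antisense RNA that silences neighbouring genes in cis. Kcnq1ot1 had 60.6, 124 and 98.3 CPM in naive and 269, 216 and 209 CPM in MECS libraries, a log2 change of 1.33 (SE 0.20, adjusted p = 0.000324). Read as a host for features on the other strand, Kcnq1ot1 had 0.26 (SE 0.13, adjusted p = 0.453). Nespas, antisense in the imprinted Gnas region, had 1.10 (SE 0.29, adjusted p = 0.0697) and was the nearest other member of its list. Of that list 1 of 12 features rose, where 0.51% of all features rose.

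Glucocorticoid-response genes gave 1 host that rose and 1 that fell among 5 tested, where 0.794% of all hosts rose and 0.331% fell. Cdkn1a encodes the cell cycle inhibitor p21, and its feature AC167363.2 had 8.66, 13.6 and 16.4 CPM in naive and 52.5, 22.8 and 42.1 CPM in MECS libraries. MECS input 2 was closest to the naive values, and the log2 change was 1.57 (SE 0.36, adjusted p = 0.0321). Foxo1 encodes a forkhead transcription factor restrained by insulin signalling. Its feature Gm20402, which lies under the first part of the gene, had 214, 157 and 183 CPM in naive and 142, 108 and 97.9 CPM in MECS libraries, a log2 change of -0.71 (SE 0.17, adjusted p = 0.0432). The call of Cdkn1a was lost without naive input 1, naive input 2, MECS input 1 or MECS input 3 (adjusted p up to 0.242), and that of Foxo1 when any library except MECS input 1 was left out (up to 0.298). Fkbp5, a co-chaperone gene induced by glucocorticoids, had 0.68 (SE 0.22, adjusted p = 0.149).

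Hif1a encodes the oxygen-regulated subunit of hypoxia-inducible factor, and as a feature it lies in introns of the antisense gene Gm15283 (chromosome 12, 73843039 to 73949814, minus strand). It had 38.1, 60.5 and 42.1 CPM in naive and 153, 88.6 and 204 CPM in MECS libraries, and MECS input 2 was nearest to the naive group. The log2 change was 1.70 (SE 0.24, adjusted p = 0.000263). As a host, Hif1a had 0.15 (SE 0.15, adjusted p = 0.758), so the 2 strands of the locus were counted with different changes, a difference that was not itself tested. Of 5 hypoxia and glycolysis features tested, Hif1a alone rose, where 0.51% of all features rose. Car9, which encodes a carbonic anhydrase, had 1.24 (SE 0.38, adjusted p = 0.138).

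Further hosts that rose included Pdzd2, a PDZ domain protein gene, from 9.53, 10.6 and 16.4 CPM to 40.0, 30.2 and 34.3 CPM, with a log2 change of 1.44 (SE 0.33). Itgad, an integrin subunit gene of leukocytes, rose by 1.52 (SE 0.35), through Cox6a2 and Gm44850, which did not pass on their own (adjusted p = 0.0962 and 0.0704). The zinc finger gene Zfp516 rose by 0.80 (SE 0.18) and 2010300C02Rik by 0.73 (SE 0.17). Chst11, Herc3, Gpc1 and Cux2 also rose. Of the named hosts, the calls of Adamts9, Ppm1h, Gm15283, Kcnq1 and 1700016P03Rik were kept whichever library was left out.

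**Figure D3:**
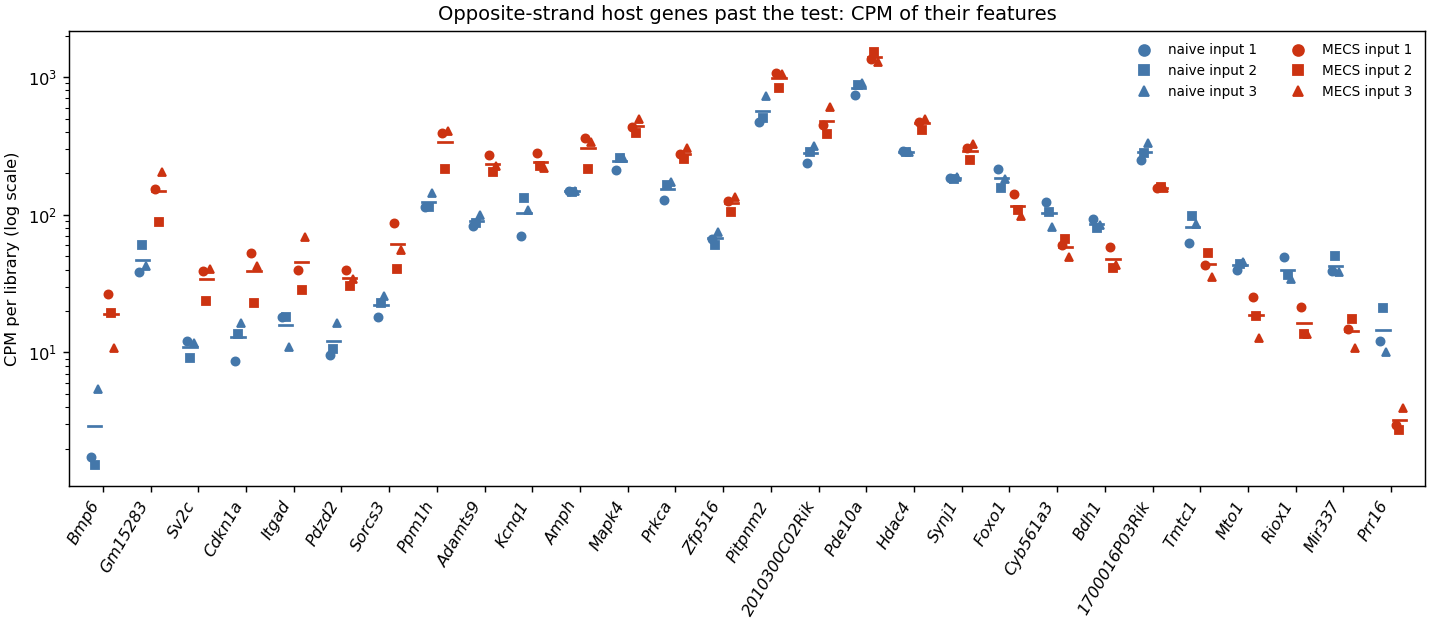
CPM of 28 of the 29 hosts chosen by the naming rule in each library on a log axis, ordered by log2 change; blue is naive, red is MECS, the marker shape is the library number and the bars are group means. The groups of every host shown are separate because the naming rule required it. The hosts run from Bmp6 with the largest rise to Prr16 with the largest fall.

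Among hosts that fell, the smallest p was that of 1700016P03Rik (chromosome 11, 75172560 to 75177633, plus strand), the noncoding gene that spans the miR-212 and miR-132 hairpins. Its 1 feature, Ovca2, had 250, 280 and 334 CPM in naive and 156, 158 and 158 CPM in MECS libraries. The MECS libraries were almost identical, all under the lowest naive library, and the log2 change was -0.91 (SE 0.15, adjusted p = 0.00204). Ovca2 overlaps the 3′ part of 1700016P03Rik and begins 2195 bases past Mir132, so these counts do not measure the hairpins or the mature miRNAs. The locus is shown by its mature miRNAs, which are known targets of CREB in neurons, from RefSeq with the seed (bases 2 to 8) in capitals.
mmu-miR-132-3p: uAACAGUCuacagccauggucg
mmu-miR-212-3p: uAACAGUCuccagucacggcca
Both 3′ arms carry the same seed, AACAGUC.

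The other small RNA locus that fell was Mir3544, a hairpin annotated on the strand opposite Mir337 in the imprinted Dlk1-Dio3 region (chromosome 12, 109585813 to 109585873, minus strand). It had 39.0, 49.9 and 38.2 CPM in naive and 14.8, 17.4 and 10.8 CPM in MECS libraries. The groups were far apart, a log2 change of -1.53 (SE 0.30, adjusted p = 0.00838). As reads of 100 bp are longer than the annotated 61 bases of the hairpin, they come from longer RNA of the locus and do not measure mature miRNA. The mature sequences are shown because each arm of 1 hairpin is complementary to an arm of the other.
mmu-miR-337-5p: cGGCGUCAugcaggaguugauu
mmu-miR-3544-3p: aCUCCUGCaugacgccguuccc
mmu-miR-337-3p: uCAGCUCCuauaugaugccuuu
mmu-miR-3544-5p: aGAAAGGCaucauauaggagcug
The first pair shares 17 positions and is complementary at 17, and the second pair shares 21 and is complementary at 21. No seed is shared among these 4 arms. The call of Mir3544 was lost without naive input 2 or MECS input 3 (adjusted p up to 0.0703).

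Riox1, a histone demethylase and hydroxylase gene, fell from 49.4, 36.3 and 34.3 CPM to 21.5, 13.7 and 13.7 CPM, by -1.31 (SE 0.30). These are counts of its 1 feature, Gm26571, whose mean exon position is -1209 bases from the start of Riox1, that is before it. Bdh1, the mitochondrial enzyme of ketone body metabolism, fell from 92.7, 80.2 and 84.2 CPM to 58.5, 41.1 and 43.1 CPM, by -0.88 (SE 0.20). Its 1 feature, Gm15743, lies 6546 bases from the start of Bdh1. Mto1, a mitochondrial tRNA modification gene, fell from 39.9, 43.9 and 45.2 CPM to 25.2, 18.3 and 12.7 CPM, by -1.20 (SE 0.29). Its 1 feature, Gm17324, has its mean exon position only 118 bases from the start of Mto1. The groups of these 3 hosts did not overlap, and each call was lost without naive input 1, naive input 2, MECS input 2 or MECS input 3 (adjusted p up to 0.285, 0.216 and 0.257). Cyb561a3, Tmtc1 and Prr16 fell by -0.84, -0.93 and -2.11, and Xkr6 passed the test with groups that overlapped.

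Most features that rose lay in introns of a host. Of 2772 tested features in introns of a host, 33 rose (1.19%) and 0 fell, where 0.51% of all features rose. Their median log2 change was 0.07, and 58.1% were positive. Of 422 features under host exons, 0 rose and 2 fell, with a median of -0.08. Features with no opposite-strand gene rose in 10 of 3108 and fell in 6. The intron features that rose lay in 30 hosts, and 25 of these hosts were longer than 100 kb, with a median length of 194.1 kb. Of the 33 features, 28 were noncoding or pseudogene annotations, near the 82.9% of all tested intron features that were.

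Intron features of hosts under 100 kb rose in 5 of 1244 (0.402%), and those of longer hosts in 28 of 1528 (1.83%). The highest share was in hosts of 200 to 400 kb, 11 of 452 (2.43%), and hosts above 400 kb had 6 of 484 (1.24%). By place, 11 of 683 rose in the first 25% of the host's length from its 5′ end, 12 of 718 between 25 and 50%, 5 of 702 between 50 and 75% and 5 of 669 beyond that. The difference between these shares was not tested. Among hosts, 17 of 24 that rose and 3 of 10 that fell were longer than 100 kb, with median lengths of 163.0 and 31.9 kb. Of all 3024 tested hosts 36.3% were that long, and the median length was 63.4 kb. These differences were not tested.

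Besides the hosts above, intron features rose inside Nrxn2, a presynaptic adhesion gene, from 358 to 641 CPM in the mean (0.84, SE 0.16). They also rose inside Atxn1, the ataxin 1 gene (1.06, SE 0.22), and inside Ppp2r3a, a phosphatase 2A subunit gene (0.85, SE 0.19). Evi2 inside the neurofibromin gene Nf1 rose by 0.73 (SE 0.17), and Gm13268 inside the calcium channel subunit gene Cacnb2 by 0.77 (SE 0.19). Kdm6bos, opposite the histone demethylase gene Kdm6b and with 34% of its exon bases in exons of that gene, rose by 0.81 (SE 0.20). The call of Evi2 was lost when any library except MECS input 1 was left out (adjusted p up to 0.161). That of Kdm6bos was lost when any library except MECS input 2 was left out (adjusted p up to 0.230).

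Within a host, features at different places could be compared with each other. Of 1507 features in 593 hosts with at least 2 tested features, 1 passed (0.0664%), by edgeR's diffSpliceDGE, and 53 had an unadjusted p under 0.05. It was Gm47423 inside Ntrk2, the gene for TrkB, the receptor of brain-derived neurotrophic factor (chromosome 13, 58806569 to 59133970, plus strand). Gm47423 lies 18759 bases from the start of Ntrk2, at 5.73% of its length, and had 378, 357 and 480 CPM in naive and 262, 324 and 302 CPM in MECS libraries. Gm34245, at 82.6%, had 565, 731 and 551 CPM in naive and 1143, 917 and 770 CPM in MECS libraries. The feature near the start was thus lower and the one near the end higher in MECS, each with separate groups. Relative to the change of Ntrk2 as a whole, Gm47423 had -0.77 (SE 0.17, adjusted p = 0.0444). On their own the log2 changes were -0.46 for Gm47423, 0.62 for Gm34245 and 0.65 for 4930415C11Rik at 80.1%, and none passed the test over all features. The call was lost without naive input 1, naive input 2, naive input 3 or MECS input 1, with 0 features called in each case, and the highest adjusted p among these was 0.519.

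Other hosts showed unequal values that did not pass the same test. In Prkca, Gm11655 at 38.0% rose by 1.03 (SE 0.17), while Gm11657 at 85.1% had -0.28 (SE 0.31). In Pde10a, Gm15425 at 9% rose by 0.90 (SE 0.15), while Gm15426 at 52.1% had 0.08 (SE 0.21). Of 11 hosts that rose with at least 2 tested features, 25 of 26 features were positive and 13 passed, a count that the choice of these hosts by their sum favours.

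**Figure D4:**
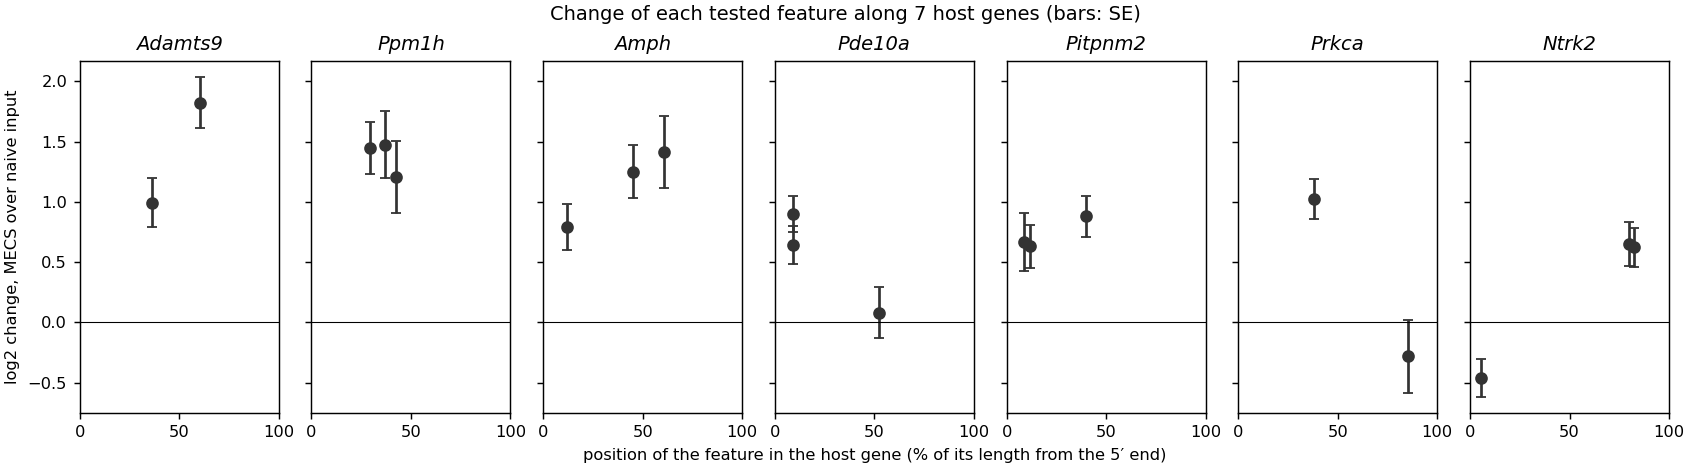
Log2 change of MECS over naive with its SE for each tested feature of 7 hosts, placed by its distance from the 5′ end as a percentage of the host's length. Amph and Ppm1h have all features above 0, and in Ntrk2 the feature near the 5′ end lies below 0 and those at 80.1 and 82.6% lie above it.

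Features without a host made up 17 of the 53 that rose and 7 of the 10 that fell. Ccdc103, a gene of cilium assembly, had the largest rise, from 4.33, 4.54 and 3.12 CPM to 25.9, 15.5 and 29.4 CPM, a log2 change of 2.57 (SE 0.47, adjusted p = 0.00390). The call was lost without naive input 3 (adjusted p = 0.0522). It lies 2120 bases past the 3′ end of Gfap, the gene of the astrocyte intermediate filament, on the other strand. Fam187a, 605 bases past the same end, rose by 1.90 (SE 0.45), with counts of 5, 8 and 12 against 68, 12 and 30 that overlap. Gfap as a feature had -0.35 (SE 0.35, adjusted p = 0.80). Of the choroid plexus and ependyma markers, 1 of 3 tested features rose, Ccdc103 itself, where 0.51% of all features rose. The sum of all 11 markers, Ccdc103 included, was 97.9 to 142 CPM in naive and 136 to 154 CPM in MECS libraries. With scaling by library size these sums were 91.0 to 134 and 135 to 158 CPM and did not overlap. They too hold the rise of Ccdc103, so their separation is not apart from that call. A part of ciliated cells in the rise was not tested.

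Aagab, which encodes a trafficking factor of adaptor complexes, lies 2179 bases past the 3′ end of Smad3, a TGF-beta signalling gene. It rose from 21.7, 21.2 and 28.1 CPM to 50.3, 60.3 and 64.6 CPM, by 1.27 (SE 0.25, adjusted p = 0.00863), a call lost without naive input 1, naive input 2 or MECS input 3 (adjusted p up to 0.0847). In all, 5 of the 17 risen features without a host lay within 5 kb past the 3′ end of a converging gene: Ccdc103, Fam187a, Aagab and, next to mitochondrial tRNA genes, mt-Nd6 and mt-Nd2. Of all 6489 tested features without a host, 33.1% lay in such a place, so the share among those that rose is near the background. Ube3b, a ubiquitin ligase gene that starts 99 bases from the divergent Kctd10, rose from 6.93, 9.08 and 5.46 CPM to 34.8, 20.1 and 45.0 CPM. Its log2 change was 2.26 (SE 0.40, adjusted p = 0.00286), with MECS input 2 the lowest of its group and still above all naive libraries.

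Several features touch an opposite gene over a small part of their exons. Ncoa3, a nuclear receptor coactivator gene, has 2.0% of its exon bases in exons of Sulf2, a heparan sulfatase gene, and rose from 56.3, 57.5 and 56.2 CPM to 111, 119 and 133 CPM. The naive libraries were nearly equal, and the log2 change was 1.09 (SE 0.19, adjusted p = 0.00286). Scrn1, which has 2.8% in Wipf3, an actin regulator gene, rose by 0.99 (SE 0.20). Ap3m1, an adaptor subunit gene with 29.8% in exons of the vinculin gene Vcl, rose from 474, 529 and 424 CPM to 876, 683 and 892 CPM, by 0.78 (SE 0.16). Rhbdd2, a rhomboid family gene, rose by 1.45 (SE 0.30). Jmy, an actin nucleator gene whose exons overlap no opposite-strand gene, rose by 0.82 (SE 0.17). The calls of Ap3m1, Scrn1, Jmy and Rhbdd2 were all lost without naive input 3 or MECS input 3. Those of Scrn1 and Jmy were also lost without naive input 2, and that of Rhbdd2 without naive input 1. Adjusted p was up to 0.0709 for Ap3m1, 0.0898 for Scrn1, 0.128 for Jmy and 0.116 for Rhbdd2.

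Mitochondrial mRNA features gave 2 rises among 7 tested, where 0.51% of all features rose. All 7 were positive, also with RLE and library size scaling. mt-Nd6, a respiratory complex I subunit encoded on the light strand, had 221, 271 and 356 CPM in naive and 499, 509 and 1007 CPM in MECS libraries. MECS input 3 stood above the other MECS libraries, and the log2 change was 1.24 (SE 0.21, adjusted p = 0.00164). mt-Nd2, another subunit of that complex, rose from 88.4, 90.8 and 104 CPM to 157, 126 and 239 CPM, by 0.87 (SE 0.20, adjusted p = 0.0290). All mitochondrial features together held 0.412 ± 0.052% of gene counts in naive and 0.574 ± 0.146% in MECS libraries (SD, n = 3 each; exact permutation p = 0.2). The call of mt-Nd2 was lost without naive input 1, naive input 2, naive input 3 or MECS input 3 (adjusted p up to 0.335), and that of mt-Nd6 was lost with DESeq2 (adjusted p = 0.0754) and with all 12 libraries in the fit (edgeR, adjusted p = 0.114).

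Slc22a8, an organic anion transporter of brain endothelium and choroid plexus, fell from 19.1, 30.3 and 42.1 CPM to 3.70, 16.4 and 5.88 CPM, by -1.84 (SE 0.43, adjusted p = 0.0333). The call was lost without naive input 2, naive input 3, MECS input 1 or MECS input 3 (adjusted p up to 0.295). The 11 endothelial markers, which include it, summed to 272 to 327 CPM in naive and 220 to 260 CPM in MECS libraries. With scaling by library size these sums were 253 to 309 and 208 to 265 CPM and overlapped. No other of the 5 tested endothelial features passed, all 5 were negative, and the part of endothelial cells in this result was not tested.

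Splicing regulators read by feature gave 1 rise and 1 fall among 18 tested, where 0.51% of all features rose and 0.0961% fell. Prpf38b, a spliceosome factor gene, rose from 7.80, 13.6 and 12.5 CPM to 23.7, 29.2 and 44.1 CPM, by 1.52 (SE 0.36), a call lost without naive input 1, naive input 2, naive input 3 or MECS input 3 (adjusted p up to 0.301) and with all 12 libraries in the fit. Rbm20, a splicing repressor gene best known in heart, fell from 18.2, 21.2 and 27.3 CPM to 6.66, 7.31 and 5.88 CPM, by -1.74 (SE 0.41), with an adjusted p of 0.0367. Leaving out any 1 library ended this call, with adjusted p from 0.0666 to 0.243. Among 14 splicing hosts 0 passed, with 7 at an unadjusted p under 0.05. Srrm4, a neuronal splicing factor gene, had 0.52 (SE 0.14, adjusted p = 0.0620) and Ptbp2, a neuronal splicing repressor gene, -1.55 (SE 0.41, adjusted p = 0.0638). With library size scaling 4 splicing hosts rose and 1 fell.

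U1 snRNP proteins and associated factors gave 0 calls among 8 tested features, with 7 positive and a median of 0.35. Luc7l3, a U1-associated factor gene, had 1.17 (SE 0.34, adjusted p = 0.101), and Snrnp70, the gene of the protein precipitated elsewhere in the series, had 0.26 (SE 0.30, adjusted p = 0.841). Cleavage and polyadenylation factors gave 0 of 13 features and 0 of 3 hosts.

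The best known early response genes had few counts. Fos had 0 to 9 counts and Npas4 1 to 8 counts per library, and neither was tested. Of 12 tested features on the list 0 passed, and 6 were positive; Jund had -0.75 (SE 0.22, adjusted p = 0.116). Arc had 17 to 25 counts (0.04, SE 0.37) and Homer1 25 to 65 counts (0.25, SE 0.29). Bdnf had 3 to 13 counts under its own symbol, and as a host it had 0.65 (SE 0.40, adjusted p = 0.548). Khdrbs1, an RNA-binding protein gene, had 1 to 5 counts. Heat shock and unfolded protein response genes gave 0 of 6 features. The ubiquitously expressed control genes gave 0 of 9 features, with a median of -0.21.

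Further features that fell were Lca5, a ciliary protein gene, from 121, 93.8 and 110 CPM to 43.7, 61.2 and 43.1 CPM (-1.15, SE 0.21, adjusted p = 0.00360). Pgr, the progesterone receptor gene, fell from 235, 234 and 271 CPM to 158, 145 and 133 CPM (-0.76, SE 0.16). Zbtb2, a zinc finger repressor gene, fell by -1.19 (SE 0.26) and Il17rd, an inhibitor of fibroblast growth factor signalling, by -1.12 (SE 0.27). Each of these had groups that did not overlap. The call of Lca5 was lost without naive input 1 (adjusted p = 0.0523), and those of Pgr, Zbtb2 and Il17rd without naive input 1, naive input 2 or MECS input 3 among others (up to 0.150, 0.170 and 0.170).

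**Figure D5:**
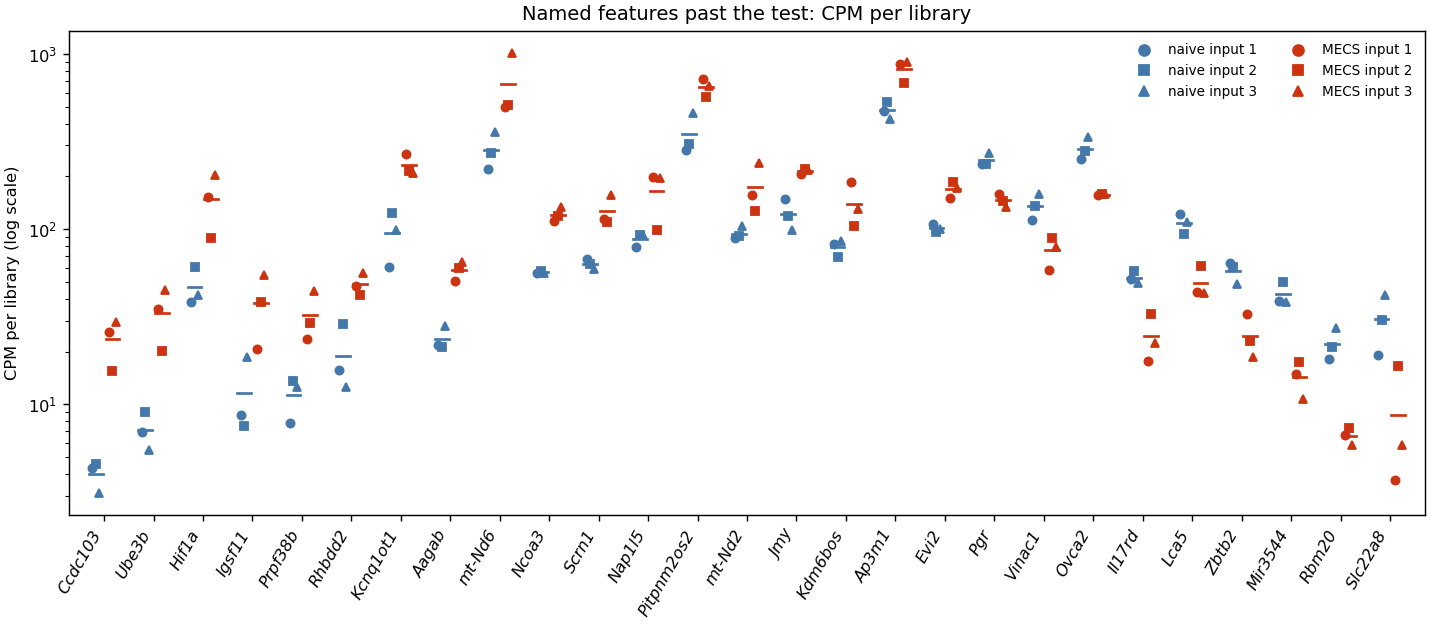
CPM of 27 of the 28 features chosen by the naming rule in each library on a log axis, ordered by log2 change; blue is naive, red is MECS, the marker shape is the library number and the bars are group means. Rises run from Ccdc103, with the largest, down to Evi2, and falls run from Pgr to Slc22a8.

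The same contrast in the U1 precipitates, made from the rest of the same lysates and therefore not independent, gave these values. For the 20 named hosts that rose in input, the log2 change in U1 was positive for 20 and passed the test for 11, where 19 of 3299 hosts rose in U1 (0.576%) and 22 changed in either direction (0.667%). For the 19 named features that rose in input it was positive for 19 and passed for 11, where 88 of 12184 features passed (0.722%). Adamts9 had 1.44 (SE 0.17), Ppm1h 1.41 (SE 0.23) and Amph 1.39 (SE 0.22). For the 9 named hosts that fell, it was negative for 9 and passed for 0, and 5 had an unadjusted interaction p under 0.05, Riox1 and Mir337 among them. Riox1 had -0.12 (SE 0.33) in U1, Mir337 -0.28 (SE 0.23) and Foxo1 -0.38 (SE 0.18). For the 9 named features that fell, it was negative for 8, positive for Zbtb2 at 0.14, and passed for 4. Of these 9, 3 had an unadjusted interaction p under 0.05. The named hosts and features were chosen by their input change, which the interaction subtracts, so the choice favours small interaction p-values among them. The difference of the contrasts, tested as an interaction in edgeR over 12 libraries, passed for 0 of 12184 features and 0 of 3299 hosts. At an unadjusted p under 0.05 were 383 features and 109 hosts, and DESeq2 also called 0 of each. The smallest adjusted p was 0.122 among features and 0.988 among hosts. With the lysate number as a block 1 feature passed, Ccdc107, which overlaps the small RNA gene Rmrp and was named after its value was seen (interaction 1.89, adjusted p = 0.00278). Its input counts were 1856, 1232 and 1429 in naive and 2026, 725 and 611 in MECS libraries, which overlap, with a log2 change of -0.73 (SE 0.22, adjusted p = 0.143).

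The share of gene counts in host introns was 21.6 ± 0.83% in naive and 24.6 ± 1.59% in MECS libraries, and in host exons 22.7 ± 0.76% and 17.9 ± 2.43% (SD, n = 3 each). Neither pair of groups overlapped (exact permutation p = 0.1, adjusted 0.3 over 6 classes). CT010467.1, a ribosomal RNA feature opposite Gm42418, held 14.7 ± 0.92% of gene counts in naive and 8.37 ± 2.93% in MECS libraries, and these groups were separate too. Its log2 change was -0.87 (SE 0.23, adjusted p = 0.0635). Without mitochondrial, ribosomal and small RNA features, the exon share was 9.14 ± 0.42% and 10.1 ± 0.77% (exact permutation p = 0.2) and the intron share 25.1 ± 1.22% and 26.7 ± 1.08% (p = 0.3 by the same test). In that setting 61 features passed, 58 of them among the 63, and 19 hosts passed, all 19 among the 34.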

How the data were processed

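Input RNA of 6 libraries was compared, and 6 libraries of U1 precipitates entered the interaction test. The authors deposited raw read counts per Ensembl gene identifier. The submitters' processing notes name the build mm10 and, without roles, HISAT2 2.2.0, Salmon 1.4, StringTie 2.1.3, DESeq2, Trimmomatic 0.39 and FastQC. No source used here gives the counting program, the annotation or the strand counted. The last 5 rows name no gene and were left out; they include reads in no feature, 88.8 to 91.3% of listed reads.

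Of 55471 identifiers, 55230 matched GENCODE M21, whose opposite-strand genes gave each feature its host (at least 50% of exon bases, at most 10% in any other gene). A feature was called intron or exon when 80% of its overlap was such. Counts per feature and per host were fitted in R 4.3.3 with edgeR 4.0.16 (TMM, filterByExpr, quasi-likelihood test, Benjamini-Hochberg at 0.05 over all tested); diffSpliceDGE tested features within hosts. DESeq2 1.42.0, other scalings, filters, overlap rules and leaving out each library were alternatives. Shares were compared by exact permutation. The code was tested on simulated counts. Replicates of a group differed beyond sampling noise. The labels do not say whether the replicate numbers pair the groups, and the main fits used no block.

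The comparison, gene lists and rules were chosen with earlier results of these data known. Named were up to 20 hosts that rose and 10 that fell with groups that did not overlap, likewise up to 20 and 12 features of log2 CPM of at least 2 without clone symbols, the list members with the smallest p (up to 4 per list), features called within hosts, and Fos, Npas4, Arc, Bdnf, Homer1, Snrnp70 and Khdrbs1. A few members of these sets are counted but not reported here by name. Sequences are from RefSeq (GRCm38.p6).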

Additional observations from a re-analysis of the deposited data

How the results depend on the processing

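Counts of calls depended on scaling and filters. No named feature or host changed sign under any alternative run. The naming rule favours this, because these features and hosts were chosen with groups that did not overlap. With 63 called features and 34 called hosts as the base, scaling by library size gave 129 and 134, no filter on low counts 111 and 102, and a CPM filter 97 and 48. Leaving out mitochondrial, ribosomal and small RNA features gave 61 and 19. DESeq2 called 57 features, 41 of them shared, and 39 hosts. A host rule of 80% overlap gave 21 hosts and one of 20% gave 42. Leaving out 1 library gave 19 to 114 features and 6 to 42 hosts. Calls held under every alternative that gave a value for 4 of 28 named features (Ube3b, Hif1a, Kcnq1ot1, Ncoa3) and 5 of 29 named hosts (Adamts9, Ppm1h, Gm15283, Kcnq1, 1700016P03Rik). Ube3b had a value in 13 of 14 alternatives and 1700016P03Rik in 15 of 16. As Ovca2 has 63.4% of its exon bases in 1700016P03Rik, the rule of 80% overlap gives this host no counts.

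The 1 call within hosts became 0 with no filter, 0 with the CPM filter and 0 at 20% overlap, and ranged from 0 to 2 over left-out libraries. The 0 interaction calls among features became 1 (Ccdc107) with library size scaling, 1 with no filter, 1 with the CPM filter and 1 with the lysate number as a replicate block, and 0 to 1 over left-out libraries; hosts gave 0 throughout.

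The exon share difference of -4.85 percentage points became 1.45 at 80% overlap and 0.972 without mitochondrial, ribosomal and small RNA features, which hold CT010467.1. Other overlaps became -4.83 and -1.17 in these settings, and in the second mixed features became -0.361 and features with no opposite gene -1.01. The cause of the other changes was not tested.

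Same-numbered libraries of both groups had deviation correlations of 0.084, -0.036 and 0.002, and differently numbered ones -0.107 to 0.104. The labels do not say what the numbers mark. With 3 libraries per group these values cannot show whether the numbers pair the groups. Fits with the replicate block gave 152 features and 90 hosts, and the same 1 call within hosts. Counts under 10 per library limit what can be said of Fos, Npas4 and Khdrbs1.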
